A study of Mus musculus with 20 samples.

Results

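The genes described here are 7 genes of cholesterol synthesis and its control, Hmgcs1, Idi1, Fdft1, Sqle, Lss, Srebf2 and Insig1, and the cholesterol-esterifying enzyme Soat2. They were found by their symbols, through the Ensembl identifiers of the GENCODE vM21 annotation, and make up 8 of the 55335 genes in the files. All 8 were among the 13982 genes that passed the filter on low values. None of them is an uptake receptor, so genes of cholesterol uptake appear below only as neighbours of the pathway. The tumours were formed in mice by CT26, a mouse colon carcinoma cell line, and each of the 20 tumours gave 1 RNA-seq library. The groups are named here vector PBS (control cells, PBS given), vector anti-PD-1 (control cells, antibody to PD-1 given), mutant PBS (POLE-mutant cells, PBS given) and mutant anti-PD-1 (POLE-mutant cells, antibody given), with 5 mice each. PD-1 is an inhibitory receptor of T cells and POLE is the catalytic subunit of a replicative DNA polymerase. The series title speaks of CHEK2, a checkpoint kinase, and of the response of tumours to PD-1 inhibition, whereas the sample labels name POLE alone. The labels do not say how the mutant cells were made or whether they are 1 clone, so the mutation and any other difference between the cell stocks cannot be told apart.

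Cells make cholesterol from acetyl-CoA through mevalonate, isoprenoid diphosphates, squalene and lanosterol. The transcription factor SREBP2, the product of Srebf2, is held in the endoplasmic reticulum by INSIG proteins while sterols are plentiful; when sterols run low it is cut free, enters the nucleus and raises the genes of sterol synthesis and uptake, Insig1 among them. Excess cholesterol is stored as esters by the acyltransferases SOAT1, found in most tissues, and SOAT2, best known from liver and intestine, or is exported by transporters under control of the LXR receptors. Dividing tumour cells need cholesterol for new membrane, and macrophages handle much of the cholesterol that is taken up and exported in a tissue.

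Promoter sequence is shown for 3 of the genes because it carries the letters through which SREBP2 is known to act. RefSeq promoter windows of GRCm38.p6, which span 250 bases before to 50 bases after a gene's start, were matched for 5 of the 8 genes: Hmgcs1, Idi1, Insig1, Lss and Srebf2. The stretches below are the parts of the window that lie in no annotated exon, at chr13:119690101-119690350 for Hmgcs1, chr15:82147019-82147180 for Srebf2 and chr5:28071162-28071362 for Insig1, all on the plus strand and read 5′ to 3′. Capitals mark TCACCCCA or its longer form TCACCCCAC (a sterol regulatory element), CACGTG (an E-box, which SREBPs can also bind) and ATTGG, the opposite-strand reading of the CCAAT box where the cofactor NF-Y binds.
Hmgcs1: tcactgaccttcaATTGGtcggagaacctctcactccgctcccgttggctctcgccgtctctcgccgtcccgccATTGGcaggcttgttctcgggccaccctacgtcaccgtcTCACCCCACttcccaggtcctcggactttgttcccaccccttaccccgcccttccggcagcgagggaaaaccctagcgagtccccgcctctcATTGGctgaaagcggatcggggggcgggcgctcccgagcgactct
Srebf2: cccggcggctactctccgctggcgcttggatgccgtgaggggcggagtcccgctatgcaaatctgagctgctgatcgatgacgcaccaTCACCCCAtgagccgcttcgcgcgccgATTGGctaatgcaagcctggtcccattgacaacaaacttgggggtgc
Insig1: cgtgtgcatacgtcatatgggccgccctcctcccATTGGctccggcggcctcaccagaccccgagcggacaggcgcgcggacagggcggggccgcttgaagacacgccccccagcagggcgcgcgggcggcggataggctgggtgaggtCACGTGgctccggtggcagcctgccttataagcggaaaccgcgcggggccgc
Both strands of the full windows were searched. TCACCCCAC was found in 1 of the 5 windows, that of Hmgcs1, against 0.551% of 32851 promoters. TCACCCCA, which lies within the longer form, was found in Hmgcs1 and Srebf2, and 1.56% of all promoters hold it. CACGTG was found in Insig1 and in 7.15% of all promoters, while CCAAT was found in all 5 windows and in 37.4% of all promoters. These matches describe the letters in the windows and show no binding.

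All values are FPKM, fragments scaled to transcript length and library size, so levels of different genes can be compared per length. Over the 20 tumours the median level was 21.8 FPKM for Hmgcs1, 20.4 for Insig1, 18.8 for Srebf2, 16.9 for Sqle, 13.1 for Fdft1, 12.1 for Idi1, 11.6 for Soat2 and 2.66 for Lss. The genes of the pathway were therefore expressed in tumours of all groups, with Lss the lowest. Soat2 spanned 2.26 to 35.4 FPKM over the 20 libraries and Idi1 spanned 0.0802 to 25.1 FPKM. The read depth of the libraries is unknown, since the files give no counts.

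**Figure D1:**
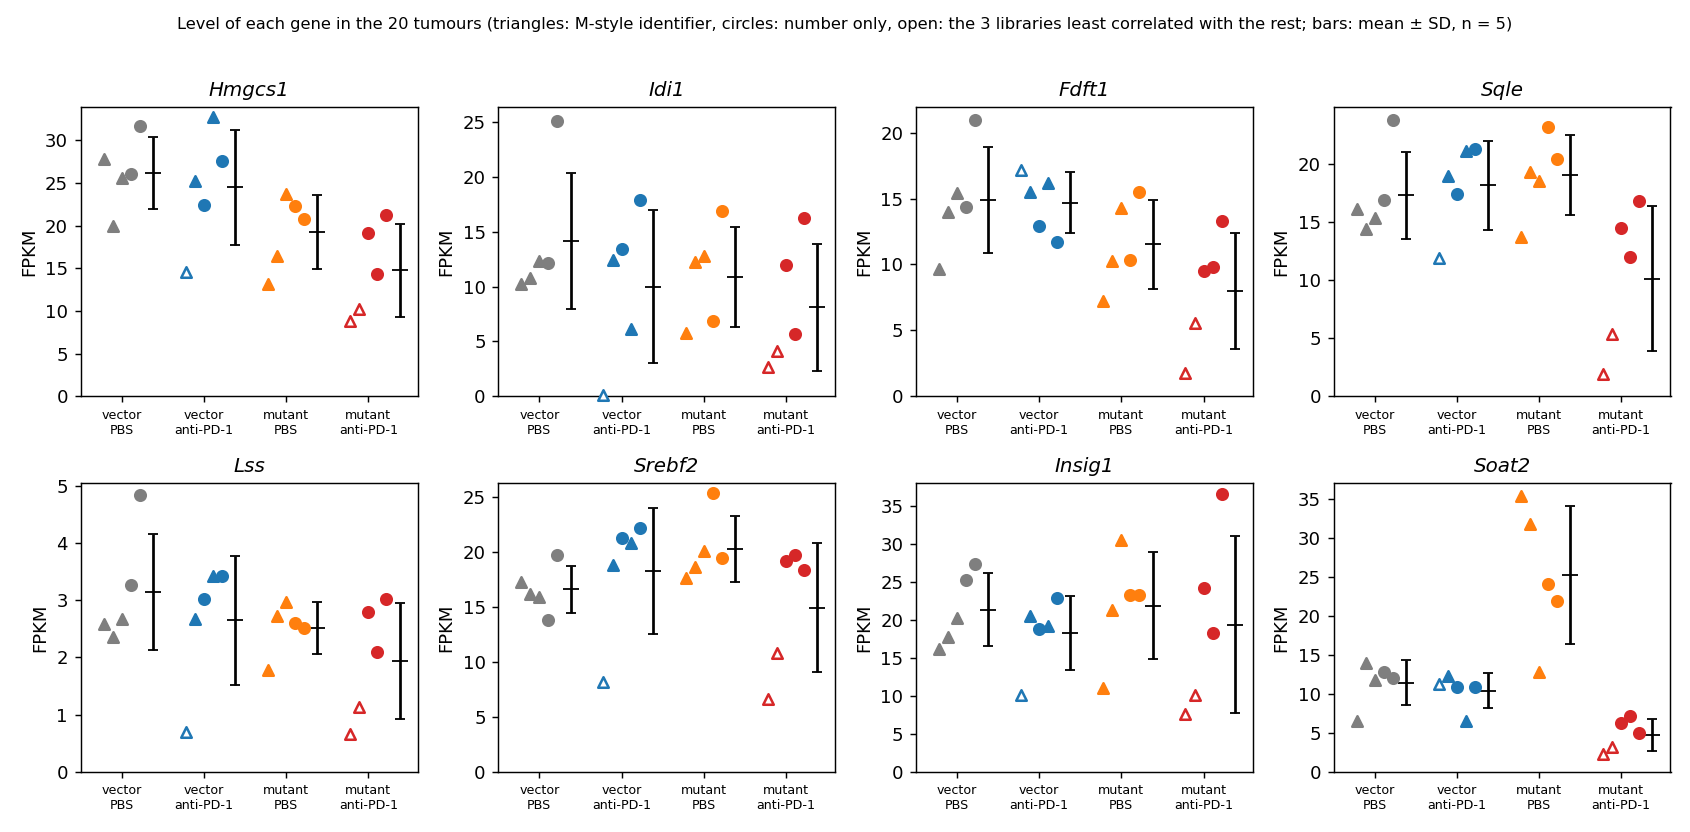
Level of each gene in FPKM (vertical axes, from 0) in the 4 groups; each point is 1 tumour, bars are mean and SD of 5, triangles and circles mark the 2 forms of animal identifier, and open points are the 3 libraries least correlated with the rest. Soat2 lies highest in mutant PBS tumours (12.8 to 35.4 FPKM) and lowest in mutant anti-PD-1 tumours (2.26 to 7.18 FPKM), while in the other panels the open points of mutant anti-PD-1 lie below the filled ones.

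Before the comparisons, 3 libraries need naming because they lie far from the rest: mutant anti-PD-1 1, vector anti-PD-1 1 and mutant anti-PD-1 2, with mean Spearman correlations to the other libraries of 0.7476, 0.776 and 0.8348 against 0.8995 to 0.9295 for the other 17. The numbers only name tumours. Vector anti-PD-1 1 also had the highest summed FPKM over all genes, 566913 against 328740 to 395938 in the others. It had the fewest genes at 1 FPKM or more, 11182. All 3 carry an animal identifier that begins with M, as 11 of the 20 libraries do, and the 2 of mutant anti-PD-1 are the only such libraries of their group; the labels do not say what this form means. The fit holds a term for it, which passed the threshold for none of the 8 genes (adjusted p 0.141 to 0.331), although its unadjusted p was under 0.05 for 6 of them. Mutant anti-PD-1 1 and 2 ranked among the lowest 3 of 20 for each of the 8 genes. The results on the 8 genes that passed the test are therefore given with and without the 3 libraries.

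In mutant tumours, anti-PD-1 went with lower Soat2 and lower Sqle. Soat2 fell to 0.210 of its PBS level and Sqle to 0.425 on the log2(FPKM + 1) scale, and no other gene of the 8 passed the threshold of an adjusted p of 0.05. Antibody-treated mutant tumours were also lower than antibody-treated vector tumours in 4 genes: Sqle, Fdft1, Hmgcs1 and Soat2. In vector tumours none of the 8 passed for the antibody, and under PBS no difference between mutant and vector passed, although Soat2 was 2.06-fold higher in mutant tumours (adjusted p = 0.0599).

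For the antibody in mutant tumours, 2 of the 8 genes were called, both lower, where 30.5% of all tested genes were called and 14.6% were called lower, and without the 3 libraries again 2 of 8, where 22.1% of all genes were called; the median log2 difference was -0.66 over the 8 genes and -0.10 over all genes. For mutant against vector under anti-PD-1, 4 of 8 were called, all lower, against 32.9% of all genes called and 15.1% called lower. Without the 3 libraries 2 of 8 were called, against 23.2%. The medians were -0.60 over the 8 genes and 0.0022 over all genes. Without the 3 libraries, the medians over the 8 genes were -0.14 for the antibody in mutant tumours and -0.41 for this comparison. Those over all genes were -0.036 and -0.044. For mutant against vector under PBS 0 of 8 were called by limma, against 1.45% of all genes. At an unadjusted p under 0.05 there were 2 of 8. Without the 3 libraries 1 of 8 was called, against 11.8%. None of the 3 is a PBS library, so for this comparison only the estimate of spread changed. For the antibody in vector tumours 0 of 8 were called by limma, 0 of 8 at an unadjusted p under 0.05, and 0% of all genes passed (425 of 13982 at an unadjusted p under 0.05). The difference between the responses of the 2 tumour types passed for 1 of 8, Soat2, against 9.35% of all genes, 1.95% in the lower direction; without the 3 libraries it was again 1 of 8, against 2.77%. Comparisons that name the same group share its 5 libraries, so their calls are not independent.

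**Figure D2:**
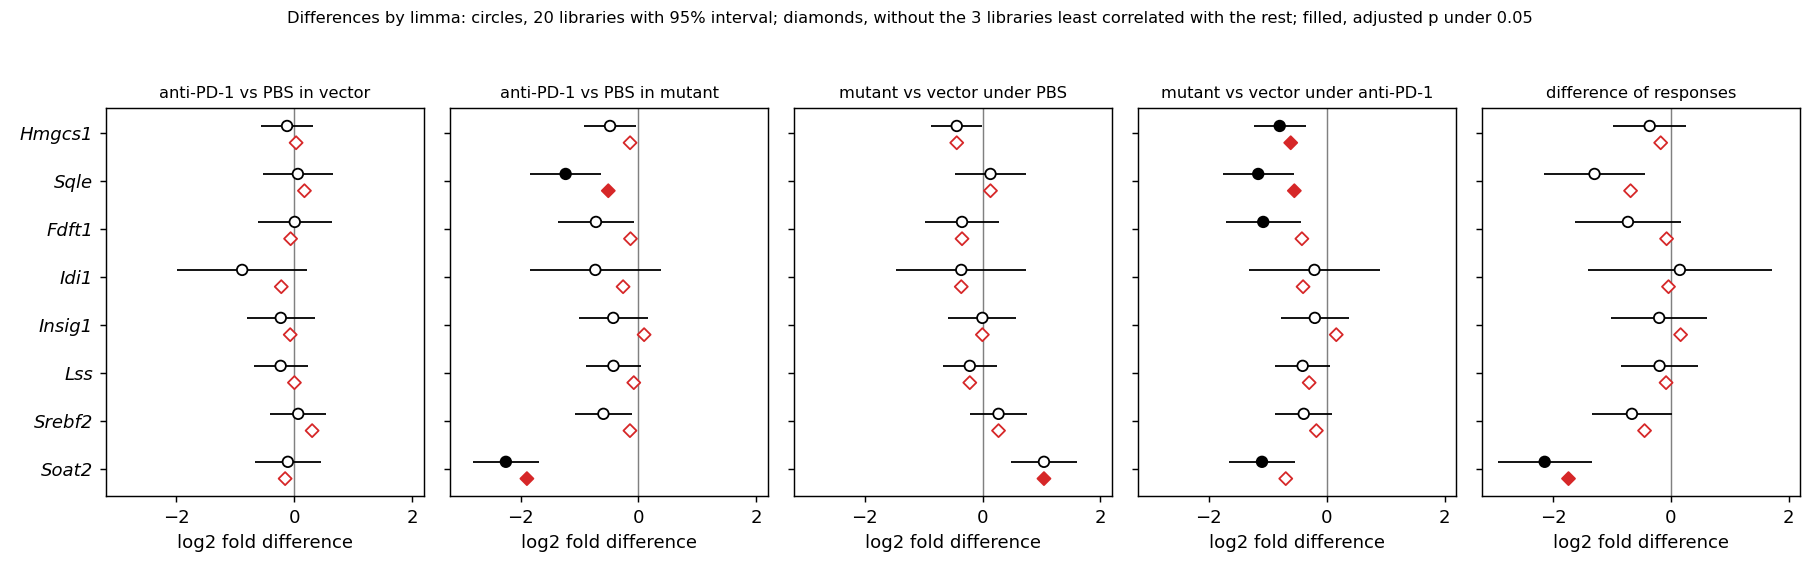
Log2 fold difference (horizontal axes) of each gene in the 4 comparisons and in the difference of the responses; black circles with 95% intervals are the limma fit to 20 libraries, red diamonds the fit without the 3 libraries that lie apart, and filled symbols have an adjusted p under 0.05. For anti-PD-1 in mutant tumours, Soat2 and Sqle are filled in both fits, and the diamonds of the other 6 genes lie between -0.26 and 0.095.

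Hmgcs1 encodes the cytosolic HMG-CoA synthase, the enzyme before the mevalonate step. It measured 27.8, 20, 25.6, 26.1 and 31.7 FPKM in vector PBS tumours and 14.6, 25.2, 22.4, 32.7 and 27.6 FPKM in vector anti-PD-1 tumours. In mutant tumours it measured 13.2, 16.4, 23.7, 22.3 and 20.7 FPKM with PBS and 8.83, 10.2, 19.2, 14.3 and 21.3 FPKM with anti-PD-1. All 4 groups overlap, and the means step down from 26.2 ± 4.23 through 24.5 ± 6.71 and 19.3 ± 4.37 to 14.7 ± 5.44 FPKM (SD, n = 5) by less than the larger SD at each step. Under anti-PD-1, mutant tumours had less Hmgcs1 than vector tumours, with a log2 difference of -0.80 (SE 0.210, adjusted p = 0.00744), and it still passed without the 3 libraries at -0.61 (adjusted p = 0.0444). The other comparisons did not pass: -0.48 for the antibody in mutant tumours (adjusted p = 0.0901) and -0.44 for mutant against vector under PBS (adjusted p = 0.452).

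Sqle encodes squalene epoxidase, which adds the oxygen that later forms the sterol hydroxyl group and is a rate-limiting enzyme of the late pathway. With PBS it measured 16.1, 14.4, 15.4, 16.9 and 23.8 FPKM in vector tumours and 13.8, 19.3, 18.5, 23.2 and 20.4 FPKM in mutant tumours. With anti-PD-1 it measured 11.9, 19.0, 17.4, 21.1 and 21.3 FPKM in vector tumours and 1.94, 5.36, 14.5, 12.0 and 16.8 FPKM in mutant tumours. The 2 lowest values are mutant anti-PD-1 1 and 2, and of the other 3 tumours of that group 2 lie within the range of mutant PBS, while mutant anti-PD-1 4 lies below it. Means of 19.1 ± 3.46 (mutant PBS), 18.2 ± 3.83 (vector anti-PD-1) and 17.3 ± 3.74 FPKM (vector PBS) lie within their SDs (n = 5), and mutant anti-PD-1 follows at 10.1 ± 6.27 FPKM. Sqle fell with the antibody in mutant tumours, with a log2 difference of -1.24 (SE 0.288, adjusted p = 0.00374). Without the 3 libraries the difference was -0.51 and still passed (adjusted p = 0.0324), with means of 19.1 ± 3.46 FPKM (n = 5) and 14.4 ± 2.42 FPKM (n = 3). Under anti-PD-1 mutant tumours also had less Sqle than vector tumours, at -1.16 (SE 0.288, adjusted p = 0.00502) with all libraries and -0.55 (adjusted p = 0.0235) without the 3. The difference of the responses was -1.30 (SE 0.406) and did not pass (adjusted p = 0.0518); it passed when any 1 of vector anti-PD-1 1 (adjusted p = 0.0392), vector anti-PD-1 3 (0.0374), mutant anti-PD-1 3 (0.0371) or mutant anti-PD-1 5 (0.0285) was left out.

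Fdft1 encodes squalene synthase, the enzyme that commits farnesyl diphosphate to sterols. It measured 9.67, 14, 15.5, 14.3 and 21.0 FPKM in vector PBS and 17.2, 15.5, 12.9, 16.2 and 11.7 FPKM in vector anti-PD-1 tumours. Mutant tumours gave 7.20, 10.3, 14.3, 10.3 and 15.5 FPKM with PBS and 1.77, 5.58, 9.5, 9.78 and 13.3 FPKM with anti-PD-1. All the groups overlap, and 4 of the 5 mutant anti-PD-1 values lie below the lowest value of vector anti-PD-1. Under anti-PD-1 the log2 difference of mutant from vector was -1.08 (SE 0.304, adjusted p = 0.0114). It was -0.42 and did not pass without the 3 libraries (adjusted p = 0.258), and it was -0.70 (adjusted p = 0.0409) when only mutant anti-PD-1 1 was left out. The annotated end of Fdft1 overlaps that of Ctsb, on the other strand, by 774 bases. Ctsb, the gene of the lysosomal protease cathepsin B, had a median of 199 FPKM, and whether reads were counted by strand is not given in the sources used here, so the level of Fdft1 is uncertain.

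Idi1 and Lss, which isomerises isopentenyl diphosphate and closes the sterol rings respectively, passed in no comparison. Idi1 ranged from 10.3 to 25.1 FPKM in vector PBS, from 0.0802 to 17.9 FPKM in vector anti-PD-1, from 5.79 to 16.9 FPKM in mutant PBS and, given the antibody, from 2.63 to 16.3 FPKM. Its SDs of 4.57 to 6.95 FPKM were about as large as the distances between groups, and its 95% interval for the antibody in mutant tumours ran from -1.84 to 0.38 on the log2 scale. Lss ranged from 2.36 to 4.84, 0.701 to 3.43, 1.77 to 2.96 and 0.662 to 3.01 FPKM in the same order of groups. The lowest 3 values of Lss belong to the 3 libraries that lie apart. When vector anti-PD-1 1 alone was left out, Lss passed for mutant against vector under anti-PD-1 at -0.61 (adjusted p = 0.0125), against -0.41 (adjusted p = 0.168) with all libraries.

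Srebf2, the gene of the pathway's transcription factor, and Insig1, its sterol-dependent brake, passed in no comparison when all 20 libraries were used. Srebf2 averaged 20.3 ± 3.01 FPKM in mutant PBS, 18.3 ± 5.76 in vector anti-PD-1, 16.6 ± 2.17 in vector PBS and 15.0 ± 5.88 FPKM in antibody-treated mutant tumours (SD, n = 5). The 5 values of mutant anti-PD-1 were 6.68, 10.8, 19.2, 19.7 and 18.3 FPKM, so that 3 tumours match the mutant PBS range of 17.7 to 25.4 FPKM and 2 lie far below it. The log2 difference made by the antibody in mutant tumours was -0.60 (SE 0.229, adjusted p = 0.0569). It was -0.14 without the 3 libraries (adjusted p = 0.412), and it passed when mutant PBS 5 (adjusted p = 0.0486) or mutant anti-PD-1 4 (adjusted p = 0.0472) was left out. Leaving out vector anti-PD-1 1, at 8.20 FPKM, brought Srebf2 past the threshold for mutant against vector under anti-PD-1 (-0.58, adjusted p = 0.0217) and for the difference of the responses (-0.85, adjusted p = 0.0381). Leaving out mutant anti-PD-1 5 did the same for Hmgcs1 (adjusted p = 0.0468) and Fdft1 (adjusted p = 0.0344) in the antibody comparison of mutant tumours.

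Insig1 had group means of 21.3 ± 4.81, 18.3 ± 4.86, 21.8 ± 6.98 and 19.4 ± 11.6 FPKM for vector PBS, vector anti-PD-1, mutant PBS and antibody-treated mutant tumours (SD, n = 5), all within 1 SD of each other. In mutant anti-PD-1 tumours it spread from 7.65 to 36.5 FPKM, which holds both the lowest and the highest of the 20 values. Its log2 difference for the antibody in mutant tumours was -0.43 with all libraries (adjusted p = 0.257) and 0.095 without the 3 (adjusted p = 0.844).

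Soat2, the esterifying enzyme, had the largest difference of the 8 genes for the antibody in mutant tumours. It measured 6.48, 14, 11.8, 12.8 and 12.0 FPKM in vector PBS and 11.3, 12.3, 10.9, 6.55 and 10.9 FPKM in vector anti-PD-1 tumours, which overlap. In mutant tumours it measured 35.4, 31.9, 12.8, 24.1 and 22.0 FPKM with PBS and 2.26, 3.22, 6.30, 7.18 and 4.93 FPKM with anti-PD-1. These 2 groups do not overlap, which was true of 1 of the 8 genes in this comparison and of 11.8% of all tested genes in the lower direction. Of the mutant PBS tumours, 4 lie above the highest vector PBS value of 14 FPKM and mutant PBS 3 lies within the vector range. The group means were 25.2 ± 8.85 (mutant PBS), 11.4 ± 2.89 (vector PBS), 10.4 ± 2.23 (vector anti-PD-1) and 4.78 ± 2.06 FPKM (mutant anti-PD-1; SD, n = 5); of the neighbours in this order only the 2 vector groups lie within their SDs.

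Soat2 fell with the antibody in mutant tumours, with a log2 difference of -2.25 (SE 0.269, adjusted p = 1.66e-05); without the 3 libraries it was -1.89 (adjusted p = 0.00122). Within the libraries whose identifier is a number alone the difference was -1.76, and within those that begin with M it was -2.78. Both passed. The M libraries of mutant anti-PD-1 are the 2 that lie apart, and its number-only libraries are the other 3. In that group the split by identifier therefore repeats the split by these libraries. In vector tumours it was -0.11 (SE 0.266, adjusted p = 0.879), and the difference of the responses, -2.14 (SE 0.378, adjusted p = 0.00387), passed with all libraries and at -1.74 without the 3 (adjusted p = 0.0436). Under anti-PD-1 mutant tumours had less Soat2 than vector tumours, at -1.10 (SE 0.269, adjusted p = 0.00462), a call that was lost without the 3 libraries (-0.69, adjusted p = 0.139). Under PBS it was 1.04 higher (SE 0.266, adjusted p = 0.0599) in mutant tumours. That difference passed when mutant PBS 3 alone was left out (1.23, adjusted p = 0.0211). The fit without the 3 libraries gave 1.04 again (adjusted p = 0.0155). None of the 3 is a PBS library, so the values compared were the same and only the estimate of spread changed. The call in that fit therefore cannot show how the difference under PBS depends on single libraries.

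Soat1, the other acyltransferase of cholesterol, passed in no comparison (0.37 for the antibody in mutant tumours, adjusted p = 0.136). It averaged 13.1 ± 1.29 (vector PBS), 13.5 ± 3.77 (vector anti-PD-1), 13.2 ± 1.36 (mutant PBS) and 17.6 ± 4.27 FPKM (mutant anti-PD-1; SD, n = 5). The ratio of Soat2 to Soat1 had a median of 0.97, 0.731, 1.94 and 0.381 in the same order, and its range of 0.0929 to 0.417 in mutant anti-PD-1 tumours lies below the range of each other group. Soat2 starts 1014 bases behind the end of Igfbp6, a gene for a binding protein of insulin-like growth factors on the same strand with a median of 173 FPKM; it was looked at after its values were seen. Igfbp6 also fell in mutant tumours with the antibody (log2 difference -1.06, SE 0.217, adjusted p = 0.00146) but was 0.12 higher under PBS in mutant tumours, which did not pass (adjusted p = 0.939). Its difference of the responses was -1.04 (adjusted p = 0.0403), and -0.45 without the 3 libraries (adjusted p = 0.0790). Soat2 amounted to a median of 6.72% and 6.90% of Igfbp6 in the vector groups, 12.6% in mutant PBS tumours and 4.39% in those given the antibody. Whether reads that run past the end of Igfbp6 were counted for Soat2 was not tested.

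**Figure D3:**
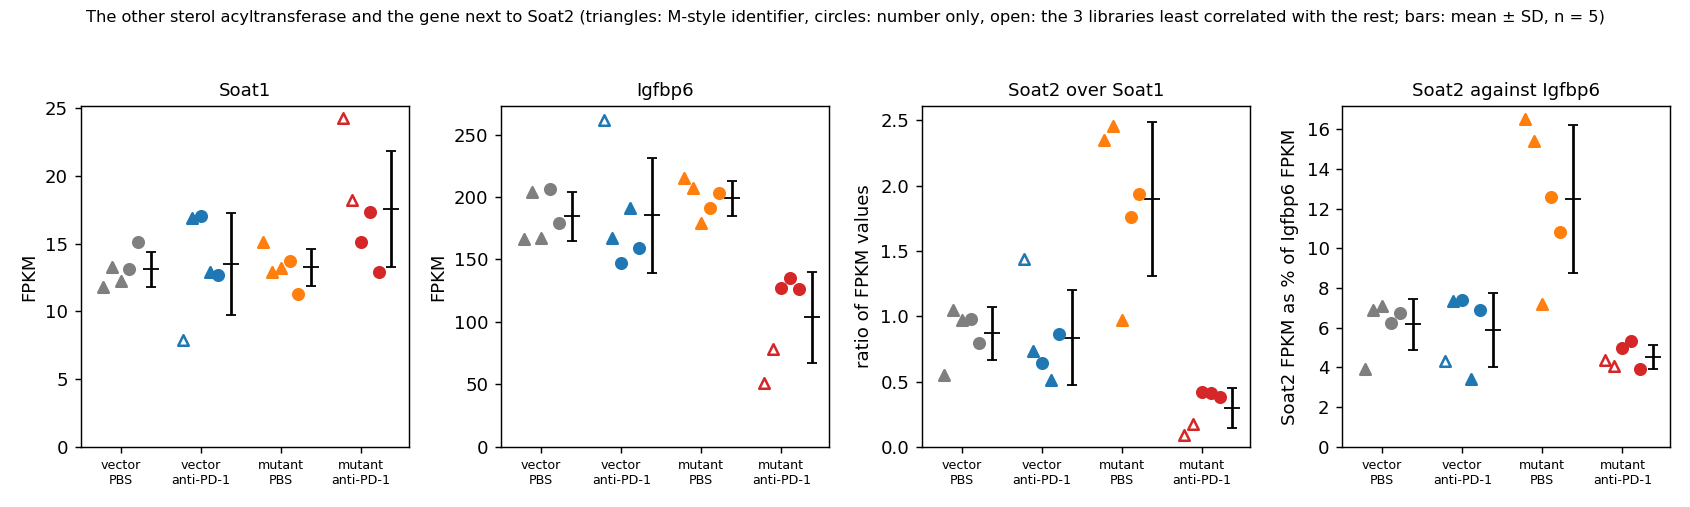
FPKM of Soat1 and of Igfbp6, the ratio of Soat2 to Soat1 and Soat2 as a percentage of Igfbp6 (vertical axes, from 0) in the 4 groups; points are tumours, bars are mean and SD of 5, and symbols are as in the plot of levels by gene. The ratio of Soat2 to Soat1 lies at 0.0929 to 0.417 in mutant anti-PD-1 tumours and at 0.972 to 2.46 in mutant PBS tumours.

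Markers of other cells moved with these results. The summed level of 8 leukocyte and T cell markers ran from 3.44 to 6.24 FPKM (vector PBS), 2.51 to 16.3 (vector anti-PD-1), 4.43 to 48.4 (mutant PBS) and 93.0 to 147 FPKM (mutant anti-PD-1); all 8 markers rose with the antibody in mutant tumours, with and without the 3 libraries. The sum of 8 macrophage markers was 542 to 841, 433 to 1100, 385 to 1060 and 1600 to 4070 FPKM in the same order, and 7 of the 8 rose, again in both fits. All 7 fibroblast markers rose in the fit to all libraries and 0 without the 3. Of the 10 proliferation markers 5 fell, and 1 without the 3. For the antibody in mutant tumours, 15.9% of all tested genes were called higher and 14.6% lower. Without the 3 libraries these shares were 12.2% and 9.96%. Within mutant anti-PD-1 the 2 libraries that lie apart differed from the other 3 in further lists: the 7 fibroblast markers summed to 2360 and 1500 FPKM against 281 to 345, the 10 proliferation markers to 162 and 297 against 402 to 519, and the 7 adipocyte markers to 342 and 111 against 12.7 to 17.8. The 7 epithelial markers of tumour cells summed to 24.9 to 84.3 (vector PBS), 32.7 to 80.1 (vector anti-PD-1) and 61.2 to 108 FPKM (mutant PBS). In mutant anti-PD-1 tumours they summed to 5.94 FPKM in mutant anti-PD-1 1 and to 43.9 to 88.5 FPKM in the other 4. Cldn4 and Cldn7 were under 0.1 FPKM in all 5. Only 3 of the 7 passed the filter on low values. With the antibody in mutant tumours 1 of these 3 fell, and 0 without the 3 libraries. Their median log2 difference was -1.14, and -0.525 without the 3 libraries. In bulk tissue, fewer cells of a type and less RNA per cell cannot be told apart. The part of these cells in the lower values of the 8 genes was not tested.

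Liver, a tissue where Soat2 is known to act beside the intestine, left little trace in the markers: the 6 hepatocyte markers summed to 0.251 to 1.76 FPKM over all tumours, with Ttr, Cyp7a1 and Apob under 0.1 FPKM in each. Of the 8 markers of keratinocytes and sebocytes, cells of the skin that make much lipid, 1 passed the filter, and their sum stayed between 1.11 and 3.93 FPKM. The 9 skeletal muscle markers summed to 2.92 to 11.3 (vector PBS), 2.66 to 487 (vector anti-PD-1), 1.5 to 967 (mutant PBS) and 91.0 to 1480 FPKM (mutant anti-PD-1), and the 6 endothelial markers to 9.28 to 34.7 FPKM outside mutant anti-PD-1 and up to 122 FPKM in it.

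**Figure D4:**
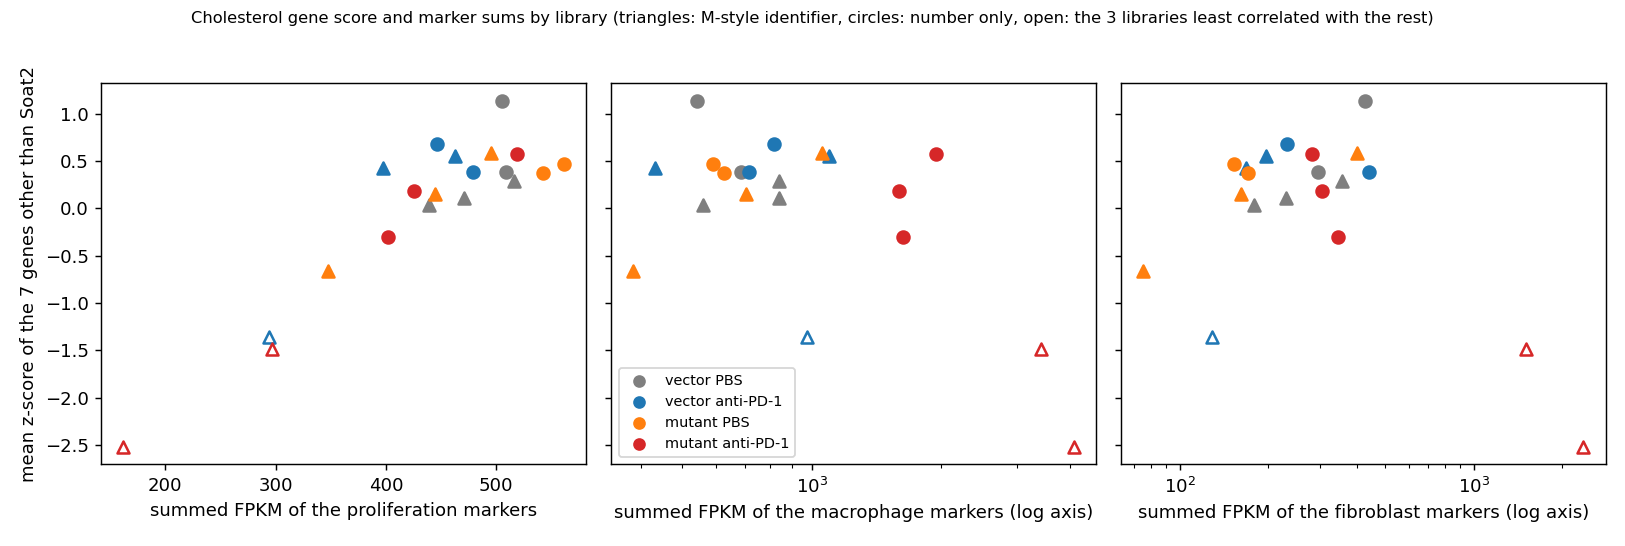
Mean z-score of the 7 genes other than Soat2 (vertical axis, log2(FPKM + 1) scaled over the 20 tumours) against the summed FPKM of proliferation, macrophage and fibroblast markers (horizontal axes, the latter 2 on a log scale); each point is 1 tumour, coloured by group, and open points are the 3 libraries that lie apart. The lowest 3 scores, -2.52, -1.49 and -1.36, are those of the open points, and their proliferation sums of 162 to 297 FPKM are the lowest of the 20.

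Other genes of sterol metabolism were taken from lists written with earlier results known. Of 16 further enzymes of cholesterol synthesis 14 were tested. With the antibody in mutant tumours 3 of them fell and none rose, where 14.6% of all tested genes were called lower. These were Msmo1 (-1.03) and Sc5d (-0.61), which act after lanosterol, and Cyp51 (-1.03), the lanosterol demethylase. None of the 14 passed there without the 3 libraries, where 22.1% of all genes were called. Under anti-PD-1, 7 of 14 were lower in mutant than in vector tumours, against 15.1% of all genes. Among them were Msmo1 (-1.03), Cyp51 (-1.17), Acat2 (-1.14), which starts the pathway, and Fdps (-1.25), the farnesyl diphosphate synthase. Without the 3 libraries 2 were lower and 1 higher, where 11.6% of all genes were called in each direction. The medians of the 14 were -0.32 and -0.49 in these comparisons, beside -0.10 and 0.0022 over all genes. Without the 3 libraries they were -0.084 and -0.345, beside -0.036 and -0.044. Of 7 genes that process SREBP, Erlin1 (-1.03) and Mbtps1 (-0.41, adjusted p = 0.0495) fell with the antibody in mutant tumours, and Erlin1, a membrane protein that binds sterols and SREBP complexes, was under anti-PD-1 also lower in the mutant group (-0.69). Without the 3 libraries 3 of the 7 fell with the antibody in mutant tumours, against 9.96% of all genes. These were Erlin1 (-0.78), Mbtps1 (-0.20) and Erlin2 (-0.28). Erlin1 was still lower in the mutant group under anti-PD-1 (-0.57).

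Genes of sterol export and ester breakdown went the other way. With the antibody in mutant tumours 5 of 7 LXR and efflux genes rose and none fell, where 15.9% of all tested genes were called higher: Nr1h3 (2.24), the gene of LXR alpha, Abcg1 (2.61) and Abca1 (1.49), the cholesterol exporters, Apoe (2.32), the acceptor apolipoprotein, and Cyp27a1 (2.46), a sterol hydroxylase. All 5 passed also without the 3 libraries, at 0.82 to 1.90. Of 5 genes for sterol esters 4 rose: Lipa (2.24), the lysosomal acid lipase, Nceh1 (0.79), an ester hydrolase, Lipe (0.68), the hormone-sensitive lipase, and Plin2 (1.06), a coat protein of lipid droplets; Lipa and Nceh1 passed without the 3 libraries. Of 8 uptake and transport genes 3 rose and 0 fell, and the estimates of 3 of the 8 were below 0. Among those that rose were Npc2 (0.96), a lysosomal cholesterol carrier, and Mylip (1.25), a ubiquitin ligase induced by LXR. Both passed without the 3 libraries. The macrophage sums given above were 1600 to 4070 FPKM in the group where these genes were high, and their part in these differences was not tested.

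Under anti-PD-1, 5 of the 7 LXR and efflux genes and 4 of the 5 ester genes were higher in mutant than in vector tumours. Of the 8 uptake and transport genes 3 were higher, among them Npc2 (1.12) and Mylip (1.28), and 1 was lower. In the fit without the 3 libraries 2 of the 8 were higher and 0 lower. The shares of all genes called higher and lower with all libraries were 17.8% and 15.1%. Without the 3 libraries the same 5 LXR and efflux genes passed, but of the ester genes only Lipa (1.18) and Nceh1 (0.25) did, and Mylip did not (0.35, adjusted p = 0.230), while Npc2 did (0.80). The difference of the responses, called higher for 7.4% of all genes, passed for Abcg1 (2.45), Nr1h3 (1.98), Cyp27a1 (2.43), Apoe (2.15), Lipa (2.34), Nceh1 (1.03) and Npc2 (0.80); without the 3 libraries it passed for Abcg1, Nr1h3, Lipa and Nceh1. In fatty acid synthesis Me1, the malic enzyme that supplies NADPH, was lower in both comparisons (-0.60 and -0.53), and Fads2, a desaturase, in mutant against vector tumours under anti-PD-1 (-0.89); without the 3 libraries Me1 passed in both (-0.43 and -0.49) and Fads2 did not (-0.39, adjusted p = 0.289), while Elovl6 (-1.21) and Acsl3 (-0.65), named after their values were seen, did. None of 6 tested isoprenoid genes passed, with or without the 3 libraries; the smallest p for the antibody in mutant tumours were those of Ggps1 (-0.34, adjusted p = 0.0864) and Pdss1 (-0.44, adjusted p = 0.11).

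For the antibody in vector tumours and for mutant against vector under PBS, limma called 0 genes of all 7 lists. At an unadjusted p under 0.05 there were 0 in vector tumours, and under PBS 2 of the synthesis enzymes, Nsdhl (-0.49, adjusted p = 0.373) and Lbr (-0.26, adjusted p = 0.433), and 1 uptake gene, Npc2 (0.32, adjusted p = 0.426). Without the 3 libraries Lbr passed under PBS, as did Nceh1, Elovl6 and Acsl3, all lower in mutant tumours. Of the uptake and transport genes 2 passed there, both higher, among them Npc2 (0.32, adjusted p = 0.0168). In that fit 11.8% of all tested genes passed. The PBS libraries are the same in both fits, so only the estimate of spread differs between them.

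**Figure D5:**
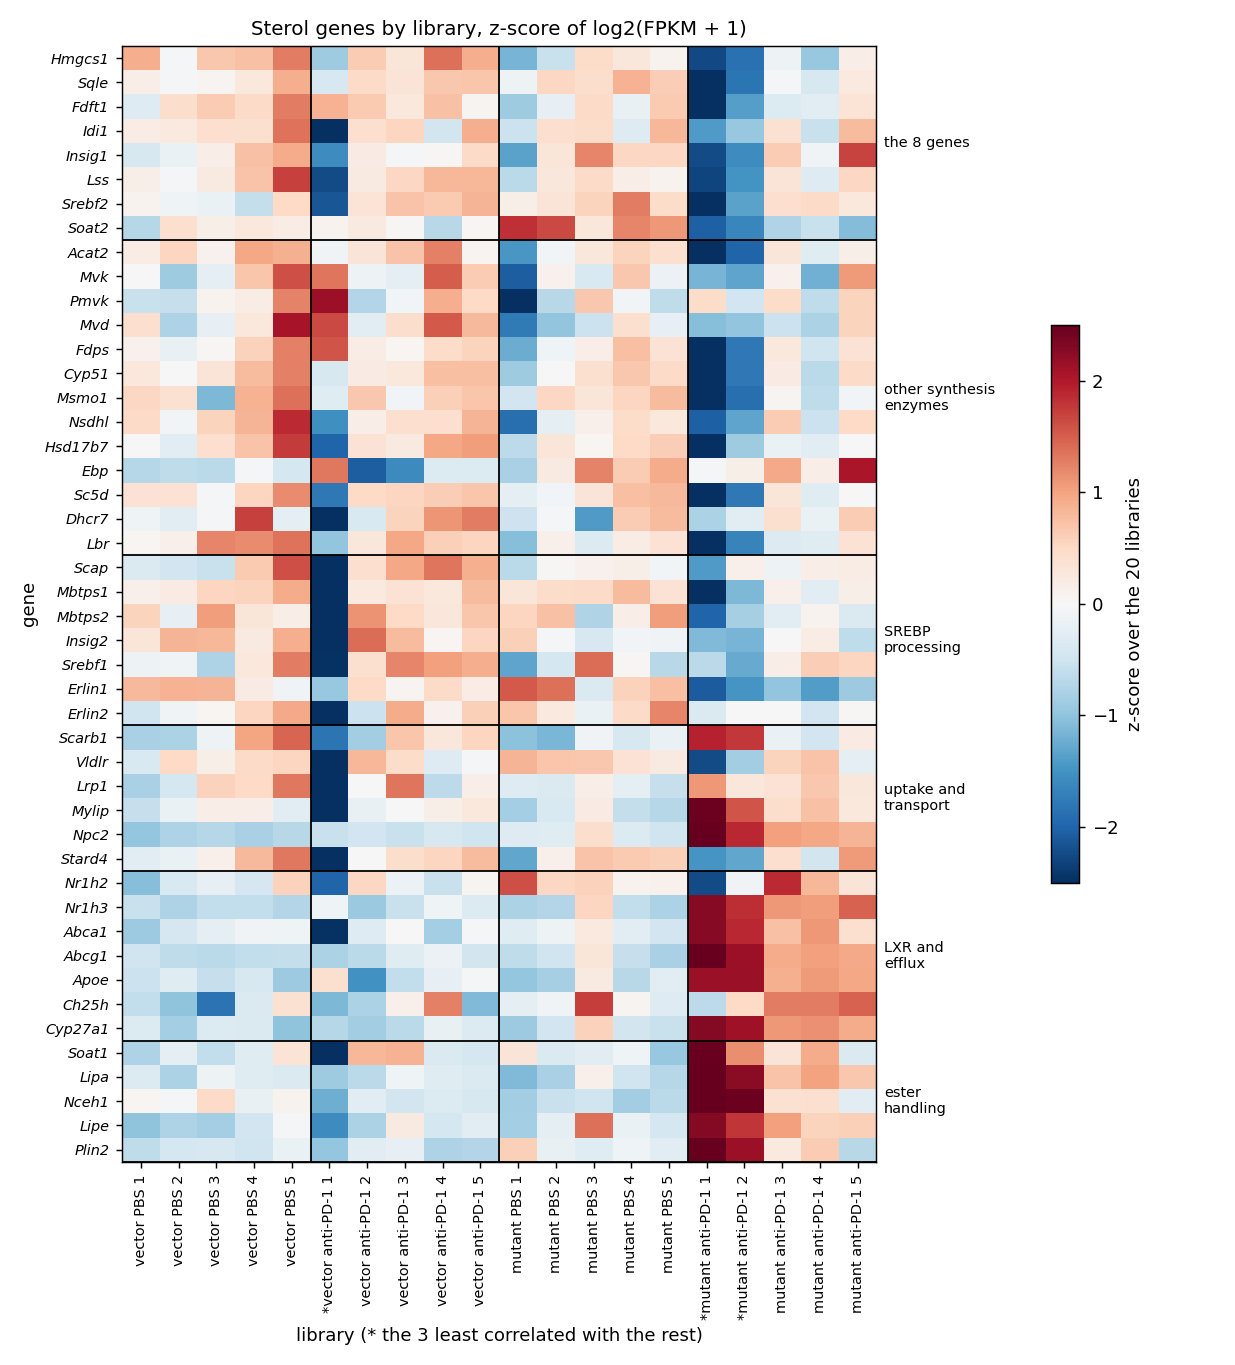
Z-score of log2(FPKM + 1) over the 20 libraries (colour) for the 8 genes and tested genes of 5 related lists (rows) in each library (columns, grouped by vertical lines; an asterisk marks the 3 libraries that lie apart). Mutant anti-PD-1 1 and 2 rank among the lowest 3 of 20 for each of the 8 genes at the top, and the LXR and efflux rows hold the 5 genes that rose with the antibody in mutant tumours.

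The 7 genes other than Soat2 varied together over all 20 tumours, and Soat2 was less like them. Over the 20 libraries the 21 pairs among the 7 genes had Pearson correlations of log2 values of 0.38 to 0.87 with a median of 0.77, while Soat2 had 0.24 to 0.63 with them. Over the 17 libraries that remain without the 3, the pairs had -0.09 to 0.79 with a median of 0.52 and Soat2 had -0.41 to 0.21. Srebf2 then had 0.52 with Sqle and -0.09 to 0.15 with the other 5. These values are descriptions; the libraries share their groups and the 3 low libraries. Mutant PBS 1 shows the separation in 1 tumour: its mean z-score over the 7 genes was -0.66, the lowest outside the 3 libraries, and its Soat2 level of 35.4 FPKM was the highest of all.

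Among the tested genes most like the mean of the 7, by Pearson correlation over 20 libraries, were Sc5d (0.962), Aacs (0.960), the acetoacetyl-CoA synthetase, and Tmpo (0.951), a protein of the nuclear lamina. After group means were subtracted they included Aacs (0.957), Eml1 (0.955) and Pole2 (0.954). Without the 3 libraries Sc5d, Aacs and Tmpo had 0.769, 0.773 and 0.726. Of the synthesis enzymes Pmvk (0.058) and Ebp (-0.085) did not vary with the 7. Soat2 was most like Areg (0.963), an EGF receptor ligand, Angptl6 (0.942), Trib3 (0.940), a stress-induced pseudokinase, Lonp1 (0.939), the mitochondrial protease, and Gnpnat1 (0.934); without the 3 libraries these had 0.900 to 0.966. After group means were subtracted it was most like Sox9 (0.896), Pvt1 (0.861), Dus2 (0.859), Areg (0.834) and Gm47881 (0.830).

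In mm10 the 8 genes are protein coding and lie on 5 chromosomes: Hmgcs1 (ENSMUSG00000093930) at chr13:119690379-119708260 and Idi1 (ENSMUSG00000058258) at chr13:8885501-8892451, Sqle (ENSMUSG00000022351) at chr15:59315077-59331192, Srebf2 (ENSMUSG00000022463) at chr15:82147181-82205379 and Soat2 (ENSMUSG00000023045) at chr15:102150526-102163469, Fdft1 (ENSMUSG00000021273) at chr14:63145150-63179578, Insig1 (ENSMUSG00000045294) at chr5:28071363-28078662 and Lss (ENSMUSG00000033105) at chr10:76531588-76557138. Fdft1 is on the minus strand and the other 7 are on the plus strand. Hmgcs1, Idi1, Lss and Srebf2 also overlap annotated genes, which are at medians of 0 to 0.481 FPKM.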

How the data were processed

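Total RNA of 20 tumours was extracted and sequenced, and 1 table of FPKM per gene was deposited for each tumour. The unit is read from the values and from Cuffnorm being named, per the submitters' processing notes, beside FastQC, STAR 2.5, DESeq and the build mm10; the file headers name no unit. The annotation, and how strands and multi-mapping reads were counted, were not given in the sources used here. Read depth is unknown. One file has 10 empty extra columns, which were not used.

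Groups came from the labels. Genes at 1 FPKM or more in at least 5 libraries were fitted as log2(FPKM + 1) with limma 3.58.1 (trend) in R 4.3.3, with 4 group means and a term for the form of the animal identifier, over all 20 libraries. The p-values were adjusted by Benjamini-Hochberg over 13982 genes with a threshold of 0.05. The fit was also run on simulated data with known changes. Those data held no libraries that lie apart and no identifier effect, so they cannot speak to either. Fold changes on this scale understate those of low genes. The labels give 5 mice a group. The p-values compare group differences with the spread between tumours within groups, estimated over the 4 groups together. They do not cover differences between separate stocks of mutant cells.

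The members and lists were chosen with earlier results of these data known. Named are the 8 genes, at most 4 called genes per related list and comparison (or the 2 with the smallest p where none passed), and the 5 genes most like the 7 genes or Soat2; Abca1, the fifth LXR and efflux gene called, and Igfbp6 and Ctsb were added after their values were seen. Some genes that these rules name are not reported here. Alternatives changed the pseudocount, filter, identifier term, scaling, trend, sample weights, a muscle covariate and the libraries used.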

Additional observations from a re-analysis of the deposited data

Results flagged for a closer look

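The difference between the responses of mutant and vector tumours to anti-PD-1 is the interaction term of the limma fit with Benjamini-Hochberg adjustment. With all 20 libraries it passed for Soat2, for 7 genes of the related lists and for Igfbp6. Soat2 had a log2 difference of responses of -2.14 (adjusted p = 0.00387). The 7 genes of the lists were higher: Abcg1 at 2.45 (adjusted p = 0.00461), Nr1h3 at 1.98 (0.00464), Cyp27a1 at 2.43 (0.00563), Apoe at 2.15 (0.0172), Lipa at 2.34 (0.00697), Nceh1 at 1.03 (0.0121) and Npc2 at 0.80 (0.0214). Igfbp6, which lies next to Soat2, had -1.04 (adjusted p = 0.0403). In this term 9.35% of all tested genes passed, 7.4% higher and 1.95% lower. When the 3 libraries that lie apart were dropped, Soat2, Abcg1, Nr1h3, Lipa and Nceh1 still passed, against 2.77% of all genes. Cyp27a1 (adjusted p = 0.0516), Apoe (0.0633), Npc2 (0.0516) and Igfbp6 (0.0790) then did not. With median-ratio factors no uptake and transport gene passed, so the call of Npc2 was lost.

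In 6 of 32 sets of a gene and a group, 1 tumour lay far from the other 4 by Dixon's criterion, which chance meets in about 1 of 20 sets. These were Idi1 in vector PBS 5 (25.1 FPKM), Insig1 (10.1 FPKM), Lss (0.701 FPKM) and Srebf2 (8.20 FPKM) in vector anti-PD-1 1, and Soat2 in vector PBS 1 (6.48 FPKM) and in vector anti-PD-1 4 (6.55 FPKM). Vector anti-PD-1 1 is also among the 3 libraries least correlated with the rest. The 32 sets share the same 20 libraries, and Insig1, Lss and Srebf2 were all flagged in this 1 tumour. The sets are therefore not independent, and their count cannot be judged by the rate for chance.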

How the results depend on the processing

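Soat2 passed for the antibody in mutant tumours in 22 of 22 alternatives (-2.78 to -1.76) and for the difference of responses in 31 of 31 (-2.71 to -1.60). Sqle passed in 22 of 22 for the antibody in mutant tumours, at -2.06 to -0.51, with limma adjusted p up to 0.0444. The count of the 8 genes called there, 2 in the report, was 5 with quantile normalization and 4 with only the groups compared. Under PBS it was 1 in number-only libraries, 1 without the 3 libraries and 3 with sample weights, against 0. For mutant against vector under anti-PD-1 it was 1 in number-only libraries, 2 without the 3 libraries and 2 with only the groups compared, against 4. For the difference of responses it was 2 in libraries whose identifier begins with M, 2 with median-ratio factors, 2 with quantile normalization and 3 with sample weights, against 1. The cause of these changes was not tested, beyond the fewer libraries in some fits.

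Leaving out 1 library gave 2 to 4, 0 to 1, 4 to 6 and 1 to 3 calls in these comparisons, and 0 for the antibody in vector tumours; the libraries are named in the report. Quantile normalization moved the median of all genes from 0.0022 to -0.125 for mutant against vector under anti-PD-1 and from 0.012 to -0.106 for the difference of responses. No gene called in the related lists changed sign under either scaling.

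Differences that changed sign were all uncalled. For the antibody in vector tumours these were Srebf2 (-0.141, M identifiers), Sqle (-0.0565) and Fdft1 (-0.467) in number-only libraries, Hmgcs1 (0.0293), Fdft1 (-0.064) and Lss (0.000784) without the 3 libraries, Soat2 (0.00834, median-ratio factors) and Fdft1 (-0.154 with sample weights, -0.0746 with the muscle covariate). In mutant tumours these were Insig1 (0.121) and Lss (0.019) in number-only libraries and Insig1 (0.0954) without the 3 libraries. Under PBS it was Insig1 (0.107, M identifiers; 0.0084, median-ratio factors). Under anti-PD-1 these were Idi1 (0.126, pseudocount 0.1) and Insig1 (0.278 number-only, 0.162 without the 3, 0.0122 with weights). For the difference of responses these were Fdft1 (0.246), Insig1 (0.449) and Lss (0.265) in number-only libraries, Idi1 (-0.0392) and Insig1 (0.166) without the 3 libraries, and Idi1 (-0.105) and Insig1 (0.0567) with weights.

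With 1 library left out, uncalled differences that crossed 0 ranged as follows. In vector tumours Hmgcs1 went from -0.28 to 0.0104, Sqle from -0.0728 to 0.179, Fdft1 from -0.0983 to 0.161, Srebf2 from -0.0776 to 0.276 and Soat2 from -0.259 to 0.00515. Insig1 went from -0.209 to 0.153 under PBS, from -0.399 to 0.000251 under anti-PD-1 and from -0.395 to 0.00416 for the difference of responses. Idi1 went from -0.795 to 0.0752 under anti-PD-1 and from -0.433 to 0.437 for the difference of responses. No paired analysis was possible because the labels give the groups no shared replicate numbers.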
